A study of Mus musculus with 4 samples.

Results

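Type 17 lymphocytes are T cells that make the cytokine interleukin-17 (IL-17). In these mice 9 genes of their programme were followed among the 32285 genes counted: the cytokines Il17a and Il17f, the cytokine receptors Il23r, Il1r1, Il17re and Il7r, the scavenger receptor gene Cd163l1, the kinase gene Blk and the transcription factor gene Maf. They were chosen by symbol, as genes known to belong to this programme, and all 9 were found. The cells were live CD45-positive cells, that is leukocytes including microglia, sorted from 2 regions, thalamus and hippocampus (HPC), of C57B6/J mice with a cortical brain injury and profiled by single-cell RNA sequencing. Every mouse was injured, so thalamus was compared with HPC and classes of lymphocytes were compared with each other, and no uninjured tissue entered. Per the methods of the study, tissue came from the injured hemisphere, and 4 mice were pooled per region. The deposited matrices, with counts of multiplexing tags, divide each region into 4 sets. Each set was taken as 1 mouse, which the labels do not state, and neither age nor time after injury is given in the labels. A separate library was made for each region, and effects of library and of region cannot be told apart.

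As background, type 17 cells are found among gamma-delta T cells and among CD4 T cells. The receptor for IL-23 and the receptor for IL-1 pass on the signals that sustain them. Gamma-delta T cells that make IL-17 leave the thymus already committed to it and settle in barrier tissues and in the meninges, whereas CD4 T cells become Th17 cells after meeting antigen. IL-17 acts on cells that carry its receptor, in which it induces chemokines and other genes that call in neutrophils.

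After filtering 24939 cells were kept, 2072 to 5389 in a set, with 9789875 to 26636526 UMIs (molecules counted once) in a set. Marker genes gated 3030 T and NK cells, 1.64% to 21.4% of a set. No gene of the programme was used in a gate. Gamma-delta T cells (Trdc and a gamma constant gene) numbered 140, 46, 5 and 61 in HPC sets 1 to 4 and 63, 104, 30 and 436 in thalamus sets 1 to 4, 885 in all. CD4 T cells without Foxp3 numbered 729, regulatory T cells with Foxp3 268, CD8 T cells 206 and NK cells 145, and 797 T cells passed no class gate. A further 509 cells held both T cell and myeloid markers and were kept out of the classes. Cd3e was detected in 92.5% of gamma-delta T cells and 2.07% of NK cells, and Ncr1 in 93.8% of NK cells. Trac, a gene of the alpha-beta receptor, was detected in 21.8% of gamma-delta T cells and 87.9% of CD4 T cells. The median UMI count was 3464 in gamma-delta, 3824 in CD4, 3580 in regulatory and 4216 in CD8 T cells and 4165 in NK cells. Levels are given as UMIs per 10000 UMIs of the class, and a cell is positive with at least 1 UMI. Classes with fewer than 10 cells in a set, HPC set 3 among them for both gamma-delta and CD4 T cells, entered no fit. Intervals are exact 95% binomial intervals and cover counting error only.

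Il17a and Il17f, which code for the related cytokines IL-17A and IL-17F, are neighbours on chromosome 1 of the mouse (GRCm38). Il17a lies at chr1:20730905-20734496 on the plus strand and Il17f at chr1:20777146-20790617 on the minus strand, 42.6 kb apart. Il23r lies at chr6:67422932-67491855, Il1r1 at chr1:40225080-40317257, Il17re at chr6:113458484-113470758, Cd163l1 at chr7:140218267-140231145, Blk at chr14:63372836-63417037, Il7r at chr15:9505788-9530176 and Maf at chr8:115682942-115707794. The 250 bases before the start of transcription are shown for both cytokine genes and for Il23r, as the 3 genes whose window held the 6 letters AGGTCA or TGACCT, a core that many nuclear receptors are known to bind, on either strand. The capitals mark those letters. The windows are from RefSeq on GRCm38.p6, at chr1:20730655-20730904 (plus strand) for Il17a, chr1:20784271-20784520 (minus strand) for Il17f and chr6:67491856-67492105 (minus strand) for Il23r, and each reads 5′ to 3′ on the strand of its gene. The gene spans above are from GENCODE. The windows of Il17a and Il23r border their spans, but that of Il17f lies inside its span, because the start used for its window is another than the end of the span.
Il17a: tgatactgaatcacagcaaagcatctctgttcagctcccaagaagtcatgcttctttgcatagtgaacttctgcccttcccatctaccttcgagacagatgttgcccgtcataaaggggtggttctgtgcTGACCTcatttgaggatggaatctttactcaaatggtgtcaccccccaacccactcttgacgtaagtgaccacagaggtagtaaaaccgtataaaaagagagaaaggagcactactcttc
Il17f: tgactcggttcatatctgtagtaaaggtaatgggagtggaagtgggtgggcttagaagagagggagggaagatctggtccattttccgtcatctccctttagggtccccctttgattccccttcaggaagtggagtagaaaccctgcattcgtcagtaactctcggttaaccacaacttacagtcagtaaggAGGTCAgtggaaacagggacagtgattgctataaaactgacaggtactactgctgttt
Il23r: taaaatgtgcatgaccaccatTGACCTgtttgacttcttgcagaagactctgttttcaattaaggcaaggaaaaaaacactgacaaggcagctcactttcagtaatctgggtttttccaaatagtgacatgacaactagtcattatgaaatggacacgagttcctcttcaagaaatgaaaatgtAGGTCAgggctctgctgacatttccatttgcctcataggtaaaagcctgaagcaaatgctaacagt
In Il17a the match began 120 bases before the start and in Il17f 58 bases before it, and Il23r held 2 matches. Of the 9 genes 7 had a window in the reference, and 3 of these held the letters. Of all 32851 windows of this length 4607 (14%) held them, so a match is common, and none is shown to be a site.

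Il17a was detected in 419 of 885 gamma-delta T cells (47.3%, interval 44.0 to 50.7) and in 222 of 729 CD4 T cells (30.5%, interval 27.1 to 33.9). These intervals pool the cells of all sets and leave out the spread between sets. The gamma-delta share was the lower in HPC set 1 (45 of 140 against 111 of 267 CD4 T cells) and thalamus set 1 (19 of 63 against 40 of 111). In the other sets it was the higher, with 253 of 436 against 14 of 93 in thalamus set 4. Il17a was near absent from regulatory T cells (3 of 268 cells), CD8 T cells (7 of 206) and NK cells (1 of 145). In microglia, which should lack the gene and served as a measure of free RNA, 0.371% of 18083 cells were positive, at a median of 4665 UMIs. In gamma-delta T cells the level was 2.41, 2.22, 6.45 and 6.55 UMIs per 10000 in HPC sets 1 to 4 and 3.05, 2.91, 4.79 and 9.48 in thalamus sets 1 to 4. In CD4 T cells it was 6.17, 1.85, 2.44 and 2.61 in the HPC sets and 3.22, 2.21, 1.64 and 1.72 in the thalamus sets. HPC set 1 was the high set among CD4 T cells and thalamus set 4 among gamma-delta T cells, and the ranges of both classes overlapped.

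The 2 high sets carried most of the Il17a measured in each class. Thalamus set 4 held 49.3% of the gamma-delta T cells but 71.0% of their Il17a UMIs, and HPC set 1 held 36.6% of the CD4 T cells but 63.4% of theirs. Within a class the transcript was concentrated in few cells. The 5% of gamma-delta T cells with the most Il17a held 52.0% of its UMIs, and the same share of CD4 T cells held 51.8%. A single gamma-delta T cell reached 94 UMIs and a single CD4 T cell 59, against a median among positive cells of 2 and 3. Of all Il17a UMIs in the data, gamma-delta T cells held 47.7%, CD4 T cells 27.2% and T cells outside the class gates 12.7%.

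**Figure D1:**
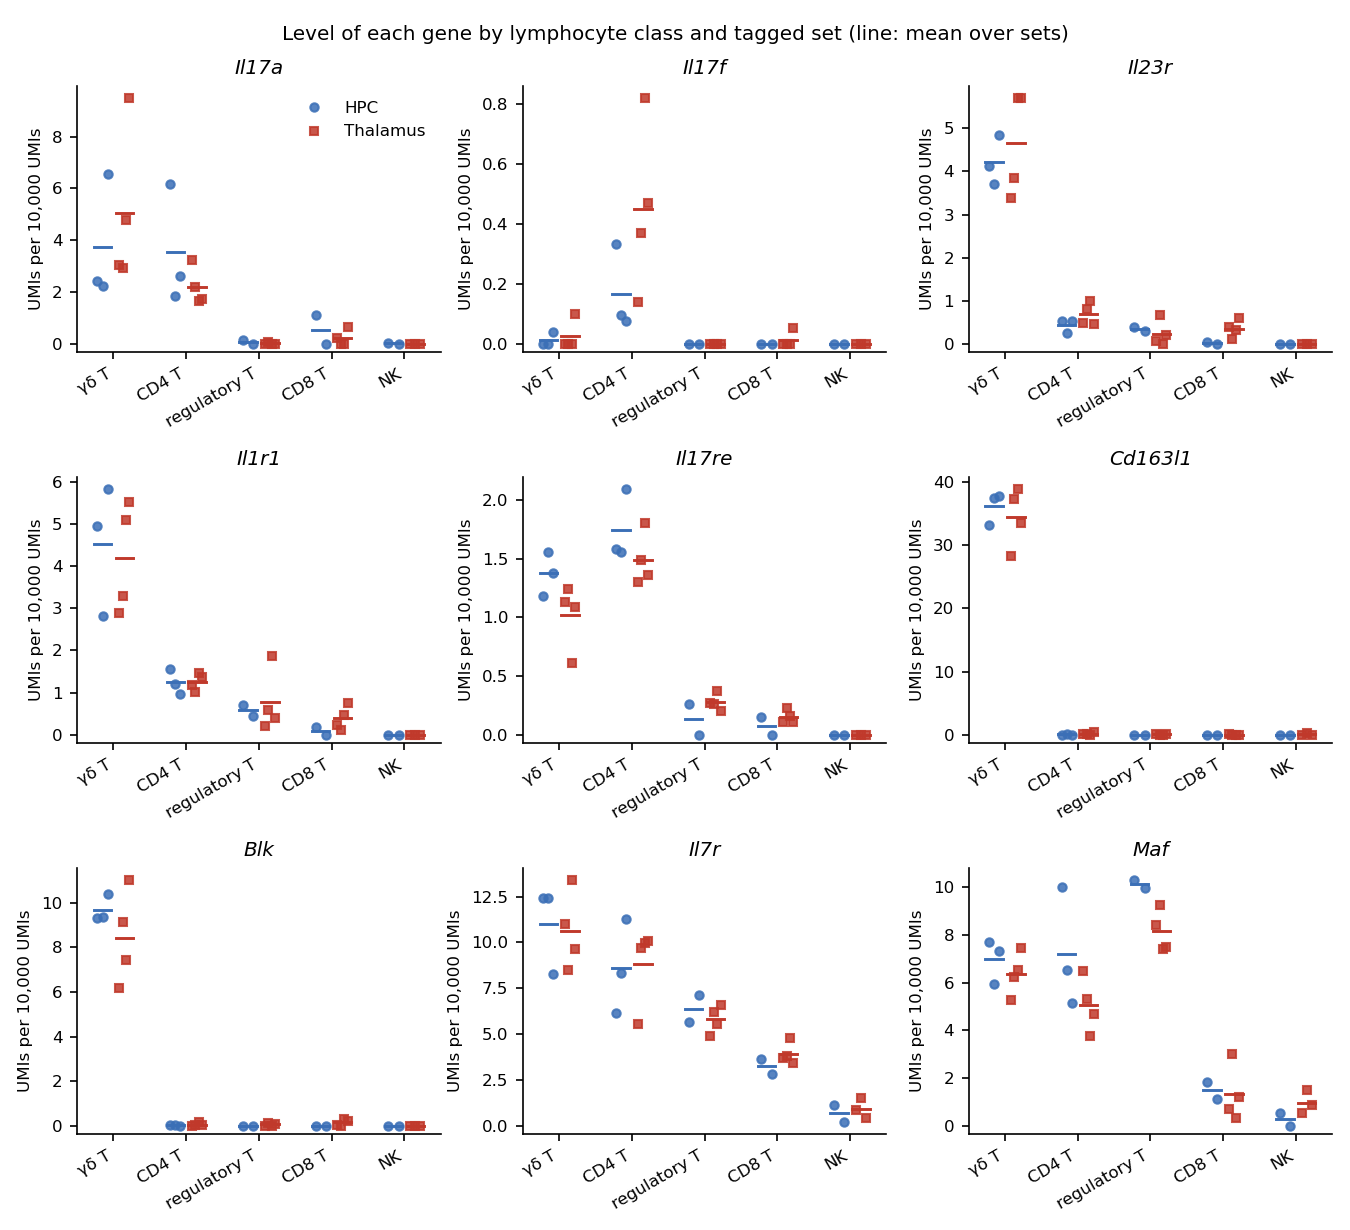
Level of each of the 9 genes in UMIs per 10000 UMIs (y axis, linear, its own scale in each panel) in 5 lymphocyte classes (x axis). Each point is 1 set with at least 10 cells of the class, HPC sets as circles and thalamus sets as squares, and each line is the mean over sets. Cd163l1 and Blk stand apart in gamma-delta T cells, Il17f is highest in CD4 T cells, and Il7r and Maf are spread over several classes.

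Against CD4 T cells, Il17a in gamma-delta T cells differed by 0.50 ± 0.23 on the log2 scale (SE, sums of 7 and 7 sets, edgeR quasi-likelihood test with the set as a block, adjusted p = 0.143), so the difference did not pass the threshold of 0.05. Its size rested on the 2 high sets: without HPC set 1 it was 0.95 (adjusted p = 0.000208) and without thalamus set 4 it was 0.07 (adjusted p = 0.911). Within the thalamus sets it was 1.01 (adjusted p = 0.00146) and within the HPC sets -0.16 (adjusted p = 0.892), and with no filter on low counts it was 0.53 (adjusted p = 0.00128). The difference between the regions in this contrast was itself fitted after these values were seen. It was 1.25 ± 0.47 (edgeR, adjusted p = 1 over 7346 genes), and 0.22 to 1.93 with a set left out, lowest without HPC set 1, 0.58 without thalamus set 4 and highest without HPC set 4. Against regulatory T cells Il17a was higher by 5.92 ± 0.56 (edgeR, adjusted p = 6.31e-12) and against CD8 T cells by 3.09 ± 0.39 (edgeR, adjusted p = 1.42e-08). The CD8 T cells that carried it were few: 46 UMIs lay in 7 cells.

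**Figure D2:**
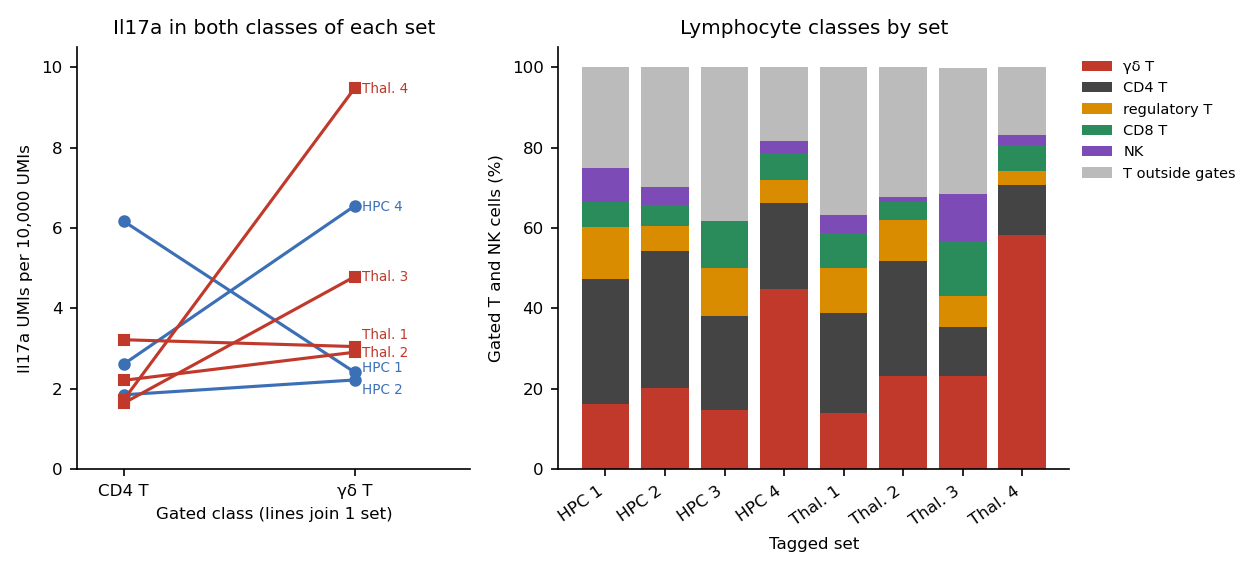
Left, Il17a in UMIs per 10000 UMIs (y axis) in CD4 and gamma-delta T cells of each set with at least 10 cells of both (lines join a set; circles HPC, squares thalamus). Right, each class as a percentage of the gated T and NK cells of each set. The line of HPC set 1 falls from 6.17 in CD4 to 2.41 in gamma-delta T cells, that of thalamus set 4 rises from 1.72 to 9.48, and thalamus set 4 has the largest share of gamma-delta T cells, 58.4%.

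Among the gated classes Il17f was found mostly in CD4 T cells. It was detected in 35 CD4 T cells (4.80%, 89 UMIs) and in 11 gamma-delta T cells (1.24%, 16 UMIs), 10 of them in thalamus set 4 and 1 in HPC set 4. Its level in CD4 T cells was 0.332, 0.0958, 0 and 0.0745 UMIs per 10000 in HPC sets 1 to 4 and 0.139, 0.371, 0.819 and 0.470 in thalamus sets 1 to 4. In gamma-delta T cells it was 0.0404 in HPC set 4, 0.1 in thalamus set 4 and 0 in the other sets. CD4 T cells held 51.7% of all Il17f UMIs and gamma-delta T cells 9.30%. T cells outside the class gates held 51 of the 172 UMIs, in 17 cells. The gene was too low for the filter of the class fit. With no filter on low counts it was lower in gamma-delta than in CD4 T cells by -3.22 ± 0.45 on the log2 scale (edgeR, adjusted p = 3.18e-11). With a mitochondrial limit of 5% it passed the filter, and the difference was -3.42 ± 0.45 (edgeR, adjusted p = 5.87e-08). Regulatory T cells held 0 positive of 268, and NK cells 0 of 145. Taking 3 cells of the total as the limit that a count of 0 allows, the share of cells with a UMI could be up to 1.12% and 2.07%. Of the 35 CD4 T cells with Il17f, 27 also held Il17a, and of the 11 gamma-delta T cells with Il17f, 10 did.

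Il23r and Il1r1, the receptor subunits through which IL-23 and IL-1 act, were higher in gamma-delta T cells than in every other class. Il23r was detected in 60% of gamma-delta T cells, 13.2% of CD4, 7.46% of regulatory and 4.85% of CD8 T cells. Its level in gamma-delta T cells was 4.12, 3.72, 5.38 and 4.85 UMIs per 10000 in HPC sets 1 to 4 and 3.38, 3.84, 5.70 and 5.70 in thalamus sets 1 to 4. In CD4 T cells it was 0.255 to 0.983 over the 7 sets with enough cells, so the classes did not overlap. The difference was 2.93 ± 0.18 on the log2 scale against CD4 (edgeR, adjusted p = 8.46e-17), 3.63 ± 0.27 against regulatory (edgeR, adjusted p = 1.98e-14) and 3.89 ± 0.29 against CD8 T cells (edgeR, adjusted p = 2.66e-14). No UMI of Il23r was found in NK cells. Against the level that 3 UMIs over the class would give, Il23r was at least 101-fold higher in gamma-delta T cells.

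Il1r1 was detected in 67.6% of gamma-delta and 30.5% of CD4 T cells. Its level in gamma-delta T cells was 4.95, 2.82, 5.92 and 5.82 UMIs per 10000 in HPC sets 1 to 4 and 2.88, 3.29, 5.09 and 5.51 in thalamus sets 1 to 4. In CD4 T cells it was 0.969 to 1.55 over the 7 sets with at least 10 cells, below every gamma-delta value, and 3.25 in the 8 CD4 T cells of HPC set 3. The difference was 1.66 ± 0.14 against CD4 (edgeR, adjusted p = 1.62e-12), 2.85 ± 0.22 against regulatory (edgeR, adjusted p = 4.69e-14) and 3.6 ± 0.25 against CD8 T cells (edgeR, adjusted p = 2.81e-15). NK cells held no UMI of it, and the gamma-delta level was at least 101-fold higher than 3 UMIs would give there. The order was gamma-delta, CD4, regulatory, CD8 and NK. The ranges of CD4 and regulatory T cells (0.216 to 1.86) overlapped, as did those of regulatory and CD8 T cells (0 to 0.759).

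Il17re codes for the receptor subunit that binds IL-17C. Both CD4 and gamma-delta T cells held it, in 36.9% and 31.4% of cells. In gamma-delta T cells it was 1.18, 1.56, 0.538 and 1.38 UMIs per 10000 in HPC sets 1 to 4 and 1.13, 1.24, 0.611 and 1.09 in thalamus sets 1 to 4. In CD4 T cells it was 1.58, 1.56, 0.542 and 2.09 in the HPC sets and 1.3, 1.49, 1.80 and 1.36 in the thalamus sets. The ranges overlapped. It was lower in gamma-delta T cells by -0.41 ± 0.14 (edgeR, adjusted p = 0.0294). That call was lost with stricter gates (-0.16, adjusted p = 0.642), with no filter (adjusted p = 0.149) and on leaving out any 1 of HPC sets 1 and 4 and thalamus sets 1 to 4 (-0.35 to -0.42, adjusted p 0.0521 to 0.119). Against regulatory T cells Il17re was higher by 2.22 ± 0.26 (edgeR, adjusted p = 4.29e-09) and against CD8 T cells by 2.93 ± 0.32 (edgeR, adjusted p = 5.15e-10). NK cells held no UMI of it.

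Cd163l1, a scavenger receptor gene known as a marker of IL-17-making gamma-delta T cells, and Blk, a Src-family kinase of B cells that gamma-delta T cells of this kind also need, set gamma-delta T cells apart most sharply. Cd163l1 was detected in 862 of 885 gamma-delta T cells (97.4%) and in 15 CD4, 4 regulatory and 2 CD8 T cells and 1 NK cell. Its level in gamma-delta T cells was 33.2, 37.4, 38.7 and 37.8 UMIs per 10000 in HPC sets 1 to 4 and 28.3, 37.2, 38.8 and 33.4 in thalamus sets 1 to 4. The highest value in any CD4 sum was 0.444, in thalamus set 4. The difference from CD4 T cells was 8.27 ± 0.22 on the log2 scale (edgeR, adjusted p = 6.06e-32). Its region difference in this contrast, also fitted after values were seen, was -2.17 ± 0.76 (edgeR, adjusted p = 1) and -3.33 to -0.74 with a set left out, and rests on 6 CD4 UMIs in the HPC and 23 in the thalamus, 17 of them in thalamus set 4. The share of CD4 T cells with Cd163l1, 2.06%, stood beside 1.37% in microglia. Of all its UMIs 78.9% lay in gamma-delta T cells, and 13.1% in the cells with T cell and myeloid markers that were kept out.

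Blk was detected in 90.5% of gamma-delta T cells and 0.823% of CD4 T cells. Its level in gamma-delta T cells was 9.31, 9.36, 3.23 and 10.4 UMIs per 10000 in HPC sets 1 to 4 and 6.17, 9.11, 7.44 and 11.0 in thalamus sets 1 to 4, where the value of 3.23 rests on 5 cells. The difference from CD4 T cells was 8.27 ± 0.25 (edgeR, adjusted p = 1.11e-27) and from CD8 T cells 6.51 ± 0.29 (edgeR, adjusted p = 3.21e-21). Regulatory T cells held 3 UMIs of it and NK cells none, and against NK cells it was at least 205-fold higher. Unlike Il17a, the 5% of gamma-delta T cells with the most UMIs held 15.9% of the Blk and 12.6% of the Cd163l1 UMIs.

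**Figure D3:**
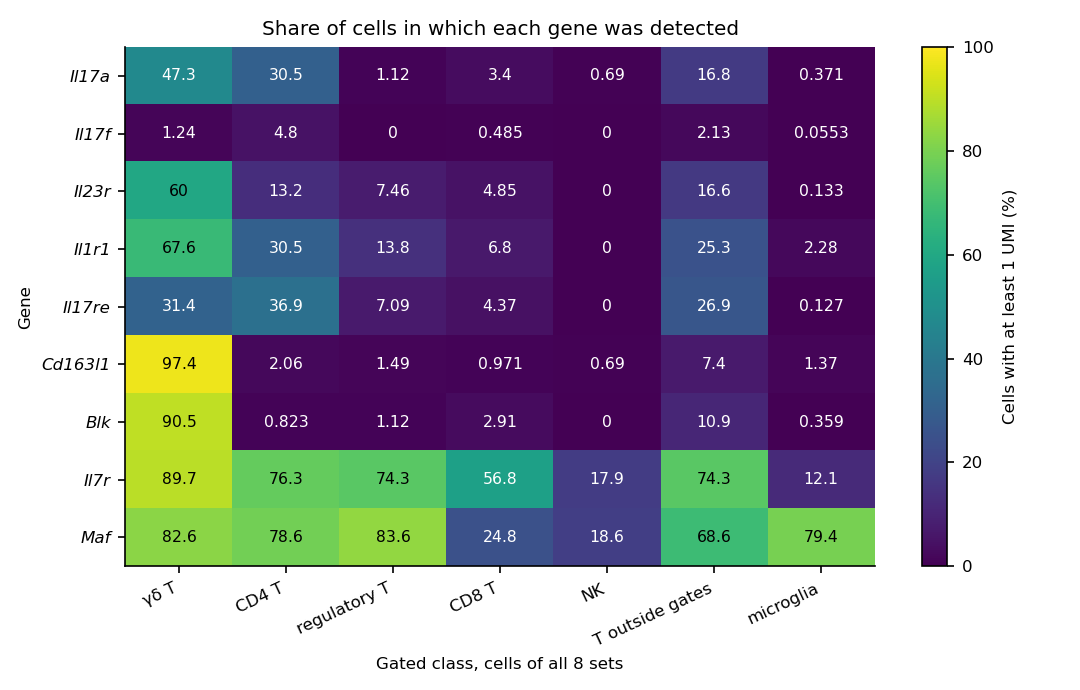
Percentage of cells with at least 1 UMI of each gene (rows) in 5 lymphocyte classes, T cells outside the class gates and microglia (columns), over the cells of all 8 sets. Cells with Cd163l1 (97.4%) and Blk (90.5%) lie in gamma-delta T cells, Il17f is at most 4.80% in the 5 classes, and Maf is detected in 79.4% of microglia.

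Il7r and Maf were shared among T cells. Il7r codes for the receptor of IL-7, which keeps resting T cells alive. It was 12.4, 12.4, 21.5 and 8.29 UMIs per 10000 in gamma-delta T cells of HPC sets 1 to 4 and 11.0, 8.48, 13.4 and 9.63 in those of thalamus sets 1 to 4. In CD4 T cells it was 6.13, 8.33, 8.4 and 11.3 in the HPC sets and 5.53, 9.68, 9.99 and 10.1 in the thalamus sets, so the classes overlapped. The difference of 0.29 ± 0.13 did not pass the test (edgeR, adjusted p = 0.105), but did with stricter gates (0.47, adjusted p = 0.0152), with a mitochondrial limit of 5% (0.35, adjusted p = 0.0210), with no filter (0.32, adjusted p = 0.0204), and without HPC set 4, thalamus set 2 or thalamus set 4 (0.41, 0.40 and 0.39, adjusted p = 0.0153, 0.0442 and 0.0437). It was higher in gamma-delta T cells than in regulatory T cells by 0.81 ± 0.15 (edgeR, adjusted p = 3.51e-05), than in CD8 T cells by 1.37 ± 0.16 (edgeR, adjusted p = 2.04e-09) and than in NK cells by 3.39 ± 0.24 (edgeR, adjusted p = 5.59e-16). The order of levels was gamma-delta, CD4, regulatory, CD8 and NK. CD4 and regulatory T cells (4.91 to 7.11) overlapped, while CD8 T cells (2.85 to 4.78) lay below regulatory T cells and NK cells (0.201 to 1.51) below CD8 T cells.

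Maf codes for the transcription factor c-Maf, which acts in type 17 cells and also in regulatory T cells and macrophages. It was highest in regulatory T cells, at 7.43 to 10.3 UMIs per 10000 over 6 sets. In gamma-delta T cells it was 7.71, 5.94, 4.30 and 7.32 in HPC sets 1 to 4 and 5.26, 6.26, 6.52 and 7.47 in thalamus sets 1 to 4. In CD4 T cells it was 10.0, 6.54, 4.07 and 5.14 in the HPC sets and 6.48, 5.31, 3.77 and 4.67 in the thalamus sets, with HPC set 1 above the rest as for Il17a. Gamma-delta T cells did not differ detectably from CD4 (0.08 ± 0.14, edgeR adjusted p = 0.771) or regulatory T cells (-0.39 ± 0.16, edgeR adjusted p = 0.0708), and were higher than CD8 T cells by 2.15 ± 0.21 (edgeR, adjusted p = 1.18e-11) and than NK cells by 3.49 ± 0.29 (edgeR, adjusted p = 1.51e-13). Without thalamus set 3 the difference from regulatory T cells passed (-0.42, adjusted p = 0.0451). An antisense gene, Gm15655, overlaps 2156 bases of Maf, and how strand was treated in counting is not given in the sources used here.

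**Figure D4:**
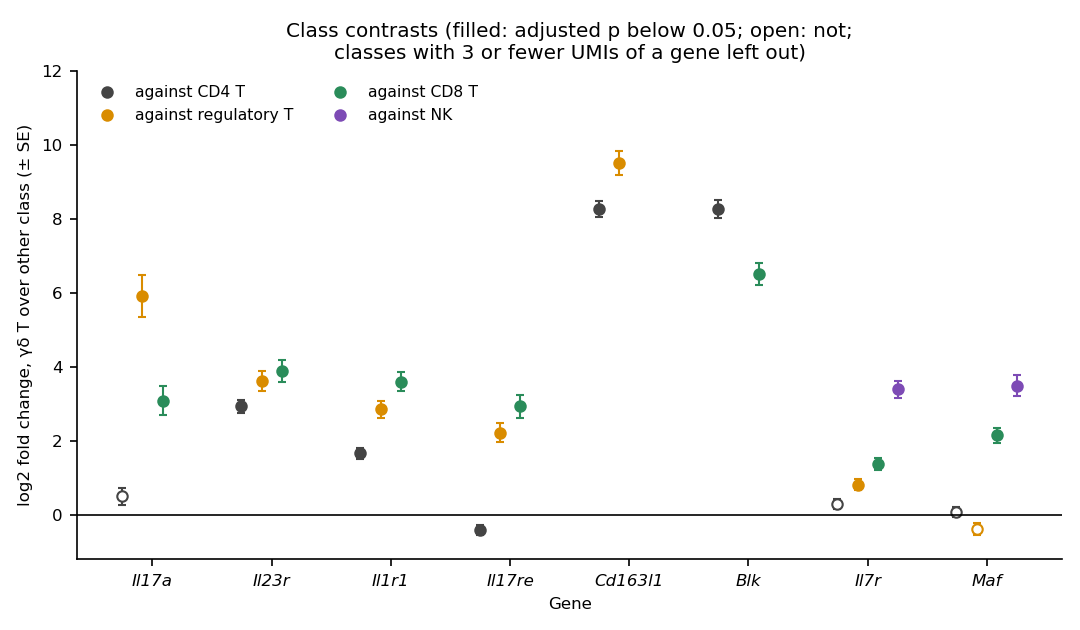
Fitted log2 fold change of gamma-delta T cells over each other class (y axis, ± SE) for the 8 genes that passed the filter (x axis). Filled points passed an adjusted p of 0.05 and open points did not, and a class with 3 or fewer UMIs of a gene is left out. Cd163l1 and Blk lie at 8.27 against CD4 T cells, where Il17a, Il7r and Maf are open and Il17re is below 0.

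Of the 8 genes tested, 4 were higher in gamma-delta than in CD4 T cells and 1 was lower, where 9.62% of all 6319 genes tested were higher and 11.0% lower. Against regulatory T cells 7 of 8 were higher and 0 lower (9.86% and 10.6% of all genes). Against CD8 T cells 8 of 8 were higher (10.3% of all genes higher, 11.7% lower), and against NK cells also 8 of 8 (12.0% higher, 11.0% lower). The median log2 fold change of the 8 against CD4 T cells was 1.08, and that of all genes -0.01. Because the 9 genes were picked as members of this programme with earlier results known, these counts are a description.

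The programme was also read cell by cell, leaving out Il7r and Maf because other T cells share them in these data. Of the 7 genes kept, Cd163l1 was detected in 97.4% of gamma-delta and 2.06% of CD4 T cells, and Blk in 90.5% and 0.823%. These genes alone set the gamma-delta T cells apart in the count, so it is given as a description. At least 4 of the 7 genes were detected in 65.4% of gamma-delta T cells, 4.12% of CD4 T cells, 1.46% of CD8 T cells and in no regulatory T or NK cell. None of the 7 was detected in 1.24% of gamma-delta T cells, 37.9% of CD4, 77.2% of regulatory and 88.3% of CD8 T cells, 98.6% of NK cells and 95.4% of microglia. Thinned to 2000 UMIs a cell, which left out 20 gamma-delta and 14 CD4 T cells, Il17a was detected in 37.1% and 25.2%, Il23r in 47.1% and 7.55%, Il1r1 in 54.2% and 20% and Il17re in 20.7% and 22.0% of gamma-delta and CD4 T cells. Over all sets the order of both classes was as before thinning for each of these 4 genes. For Il17a it also held in the thalamus, at 41.3% of gamma-delta and 19.1% of CD4 T cells after thinning. In the HPC the order of Il17a turned: 38.1% of gamma-delta and 36.9% of CD4 T cells before thinning, and 26.8% and 30.7% after.

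**Figure D5:**
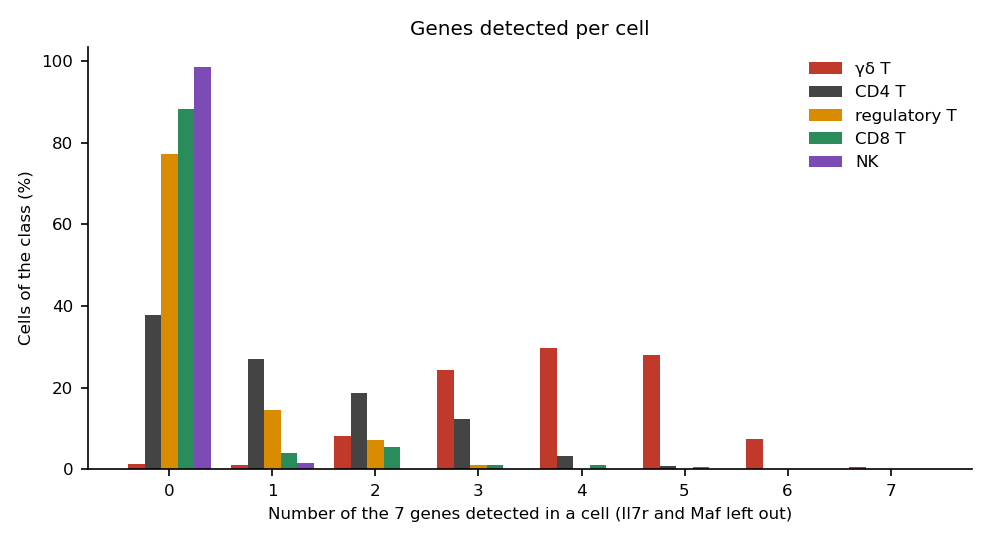
Percentage of the cells of a class (y axis) by how many of 7 genes were detected in a cell (x axis; Il7r and Maf left out), in 5 classes over all sets. Gamma-delta T cells peak at 4 genes (29.7% of cells), and all other classes peak at 0, from 37.9% of CD4 T cells to 98.6% of NK cells. Cd163l1 and Blk, which most gamma-delta T cells hold and few other cells do, are among the 7.

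Co-detection was described in cells with and without Il17a, beginning with CD4 T cells. Il1r1 was detected in 50% of the 222 CD4 T cells with Il17a and in 21.9% of the 507 without, Il17re in 55.4% and 28.8%, Il23r in 18.5% and 10.8%, Il17f in 12.2% and 1.58%, and Maf in 91.4% and 73.0%. Ccr6, a chemokine receptor gene of Th17 cells, was detected in 50% and 19.5% of these cells. Ifng, the cytokine of type 1 T cells, was detected in 9.46% of CD4 T cells with Il17a and 16.4% of those without. In gamma-delta T cells the receptors were common with or without Il17a: Il1r1 in 75.2% and 60.7%, Il23r in 64.2% and 56.2% and Cd163l1 in 98.1% and 96.8%. Ifng was detected in 2 of the 419 gamma-delta T cells with Il17a. Median UMIs were 3589 and 3298 in gamma-delta and 3949.5 and 3779 in CD4 T cells with and without Il17a. These shares pool cells of all sets and are given as a description.

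Other genes of type 17 cells, in a list of 26 regulators and surface genes, were mostly higher in gamma-delta than in CD4 T cells. Of 24 tested, 15 were higher in gamma-delta T cells, 4 were lower and 5 did not pass the test (median log2 fold change 1.05, all genes -0.01). Among all 6319 genes tested 9.62% were higher and 11.0% lower. Zbtb16, a transcription factor gene of innate-like T cells, was at 3.66 UMIs per 10000 in gamma-delta T cells, with 2 UMIs in all CD4 T cells. Sox13, a factor gene of the IL-17 lineage of gamma-delta T cells, was at 1.5, with 1 UMI in CD4 T cells, and the channel gene Kcnk1 at 1.44, with 3 UMIs. The lower genes were Ccr6 (-4.38 ± 0.35, edgeR adjusted p = 2.18e-14), the receptor gene Ahr (-1.07 ± 0.26), the co-stimulatory gene Icos (-0.87 ± 0.13) and 5830411N06Rik, a relative of Cd163l1. That last gene was at 0.425 UMIs per 10000 in CD4 T cells, with 2 UMIs in all gamma-delta T cells. Cxcr6, a chemokine receptor gene of tissue T cells, was detected in 98.9% of gamma-delta and 85.7% of CD4 T cells. Il22, the gene of another type 17 cytokine, was found as 14 UMIs in CD4 T cells and none in gamma-delta T cells. Ccr6, Ahr, Icos, Cxcr6 and Il22 were named after their values were seen.

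Of 8 genes of type 1 lymphocytes 0 were higher and 6 lower than in CD4 T cells, with Ifng at -4.17 ± 0.43 (edgeR, adjusted p = 7.31e-11), the receptor gene Cxcr3 at -2.73 ± 0.29, the IL-12 receptor gene Il12rb2 at -3.00 ± 0.63 and the factor gene Tbx21 at -1.86 ± 0.32. Against CD8 T cells and against NK cells 0 were higher and all 8 were lower, and against regulatory T cells 0 were higher and 3 lower. Of all genes tested 11.0% were lower against CD4, 10.6% against regulatory and 11.7% against CD8 T cells, and 11.0% against NK cells. Eomes, a gene of this list, was also a marker in the NK gate, so its call against NK cells was partly set by the gate. Of 6 type 2 genes 3 were tested against CD4 T cells and 0 passed in edgeR (0 also at an unadjusted p under 0.05; no other tool was run on this contrast). Of 10 receptor partners 6 were tested. Il12rb1, which pairs with the Il23r product, was higher by 0.80 ± 0.28 (edgeR, adjusted p = 0.0339), and Il1r2, the decoy receptor of IL-1, was lower by -2.67 ± 0.56 (edgeR, adjusted p = 0.000305), as were Il6ra (-1.95 ± 0.37) and Il12rb2.

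Genes of the ligands of these receptors were read in the other cells of the sort. Il1b was at 31.8 UMIs per 10000 in 665 neutrophils (19.6 to 35.4 over 6 sets with at least 10 cells). It was at 2.73 in dendritic cells (0.235 to 4.34 over such sets), 1.95 in macrophages (0.25 to 4.64) and 0.202 in microglia (0.079 to 0.47). The ranges of dendritic cells, macrophages and microglia overlapped. Il1a was at 1.06 in microglia (0.887 to 1.28 over the 8 sets), and Il18 at 0.914. Il23a, the IL-23 subunit, was found as 19 UMIs in 18083 microglia, 5 in 665 neutrophils (4 of them in HPC set 4), 1 in 580 macrophages and none in 222 dendritic cells. Il7 was found as 1 UMI in microglia, 2 in macrophages and 1 in dendritic cells of thalamus set 2. These are too few to compare at this depth. Il17ra, the shared subunit of the IL-17 receptor, was at 4.10 in neutrophils and 0.812 in microglia. Of genes listed as induced by IL-17 in responding cells, Lcn2 was at 16.9 and Cxcl2 at 6.80 in neutrophils, and Csf3 had no UMI in these classes. These are levels by class, and no test was run between them. Whether IL-17 had a part in the levels of Lcn2 and Cxcl2 was not tested. Between gamma-delta and CD4 T cells 1 cytokine gene, Tgfb1 (0.01 ± 0.15), and 2 genes induced by IL-17, Nfkbiz (-0.29 ± 0.25) and Zc3h12a (0.09 ± 0.26), could be tested, and 0 were called in edgeR (0 at an unadjusted p under 0.05). Of the 7 genes for cytokines that act on type 17 cells tested over all CD45-positive cells, 0 differed between regions in edgeR (1 at an unadjusted p under 0.05; 0 with the DESeq2 Wald test, with no adjusted p for 1 gene). In microglia 0 of 6 were called in edgeR (2 at an unadjusted p under 0.05). The Wald test called 1, Il1rn, the gene of the IL-1 receptor antagonist, at 1.79 ± 0.54 in edgeR (adjusted p = 0.0561, Wald adjusted p = 0.0192).

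Next it was asked whether the programme differed between the regions. Gamma-delta T cells were 24.0% ± 14.1 (SD, n = 4) of the gated T and NK cells in the HPC and 29.7% ± 19.6 (SD, n = 4) in the thalamus, 5.71 percentage points apart (p = 0.543 by an exact permutation test, two-sided, over all 70 assignments, with 0.0286 the smallest possible). Without thalamus set 4, where they were 58.4%, the difference was -3.85 (exact permutation p = 0.971), and without HPC set 4 it was 12.7 (exact permutation p = 0.229). Il17a in gamma-delta T cells was 3.73 ± 2.45 UMIs per 10000 (SD, n = 3) in the HPC and 5.06 ± 3.07 (SD, n = 4) in the thalamus. The fitted difference was 0.59 ± 0.33 (edgeR, adjusted p = 0.849), -0.16 without thalamus set 4 and 1.21 without HPC set 4. Of the alternatives run, it passed with no filter on low counts (0.59, adjusted p = 0.00638). Cd163l1 was 36.1 ± 2.55 (SD, n = 3) and 34.4 ± 4.67 (SD, n = 4), with a difference of -0.10 ± 0.08 (edgeR, adjusted p = 0.947). Il23r differed by 0.11 ± 0.16, Il1r1 by -0.15 ± 0.20, Il17re by -0.30 ± 0.20, Blk by -0.17 ± 0.14, Il7r by -0.13 ± 0.14 and Maf by -0.16 ± 0.12.

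Of the 8 genes tested in gamma-delta T cells 0 differed between the regions in edgeR, and 0 had an unadjusted p under 0.05, where 0.777% of all 5021 genes were called. In the sums of all T and NK cells 0 of 9 were called (0 unadjusted), where 0.0323% of 9275 genes were called. Here Il17a differed by 0.15 ± 0.45, from -0.65 to 0.39 on leaving out a set. Over all CD45-positive cells, where fewer cells of a type and less RNA per cell cannot be told apart, 0 of 9 were called and 1, Maf, had an unadjusted p under 0.05, where 3.81% of 14124 genes were called. Il17a differed there by 0.91 ± 0.89 and ran from -0.28 to 1.86 with a set left out. The DESeq2 Wald test called 0 of the members in the first 2 of these sums and Maf in the third. DESeq2 gave no adjusted p for 4 members in each of the first 2 sums. Of the other type 17 genes, 1 of 25 tested over all CD45-positive cells was called, Ramp1, the gene of a neuropeptide receptor partner, which was higher in the thalamus by 1.20 ± 0.26 (edgeR, adjusted p = 0.0454). That call was lost on leaving out any set but HPC set 1 (adjusted p 0.0517 to 0.151), and Ramp1 differed by 0.25 ± 0.17 in gamma-delta T cells (edgeR, adjusted p = 0.896) and 0.16 ± 0.27 in T and NK cells (edgeR, adjusted p = 1). Microglia held 7000 UMIs of Ramp1 and gamma-delta T cells 4040. Of the type 17 genes 0 of 22 tested in gamma-delta T cells were called in edgeR (0 at an unadjusted p under 0.05; 0 with the Wald test, with no adjusted p for 16).

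Maf over all CD45-positive cells was lower in the thalamus by -0.35 ± 0.08 (edgeR, adjusted p = 0.0533), and 77.1% of its UMIs lay in microglia. A fit over microglia alone was therefore added. There Maf was at 4.86, 5.77, 5.85 and 5.84 UMIs per 10000 in HPC sets 1 to 4 and 3.64, 4.22, 4.71 and 4.16 in thalamus sets 1 to 4, and every HPC set lay above every thalamus set. The difference was -0.34 ± 0.07 (edgeR, adjusted p = 0.0144), where 13.1% of 12898 genes were called. It missed the threshold without HPC set 2 (-0.33, adjusted p = 0.0532) or HPC set 4 (-0.32, adjusted p = 0.0503). Il7r in microglia differed by -0.40 ± 0.39 (edgeR, adjusted p = 0.524), and by -0.71 without HPC set 1 (adjusted p = 0.0393), the set with the lowest value.

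Genes of gamma-delta T cells were also called in microglia, at low levels. Il1r1 was higher in thalamic microglia by 0.83 ± 0.16 (edgeR, adjusted p = 0.00979), with 2.93% of cells positive against 1.78% in the HPC. Blk was higher by 1.54 ± 0.31 (edgeR, adjusted p = 0.0125), with 0.545% against 0.216% positive. Without HPC set 2 the Blk difference was 1.4 (adjusted p = 0.0514). Cd163l1 was higher by 0.60 ± 0.17 (edgeR, adjusted p = 0.0493), a call that was lost in every fit with a set left out (adjusted p 0.0541 to 0.127). Of all 12898 genes tested in microglia, 1134 were higher in the thalamus and 554 were lower. Of 18 other type 17 genes tested in microglia, 4 were higher in the thalamus, 1 was lower and 13 did not pass. The higher genes were Ramp1 (1.59 ± 0.21), Zbtb16 (1.11 ± 0.32), Cxcr6 (0.84 ± 0.19) and Rora (0.33 ± 0.09), and the lower was Lmo4 (-0.18 ± 0.05), a gene of a transcriptional cofactor. Ramp1 passed in each of the 8 fits with a set left out (edgeR, adjusted p 0.00104 to 0.0124). Cxcr6 was lost without HPC set 2 or thalamus set 4 (adjusted p 0.0524 to 0.0613), and Zbtb16, Rora and Lmo4 were lost in 6, 7 and 8 of these fits. Sox13, among the genes that did not pass, was at -0.56 ± 0.21 (edgeR, adjusted p = 0.0995). T and NK cells were 1.64% to 16.0% of the HPC sets and 6.02% to 21.4% of the thalamus sets, and the part of free RNA in these differences was not tested.

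The genes with the pattern most like 2 of the members over the 31 sums of a class in a set were found by Pearson's r of log2(CPM + 1) among 8248 genes, with the gate genes left out. For Il17a they were Mtss1 (r = 0.884), Lrrn2 (0.880), Gm15952 (0.866), Abhd15 (0.847) and 4833412C05Rik (0.844). For Cd163l1 they were Lrrc17 (r = 0.935), Tdrd9 (0.935), Shank2 (0.931), Rimbp2 (0.930) and Zbtb7c (0.926). Mtss1 was at 1.23 UMIs per 10000 in gamma-delta, 0.701 in CD4, 0.0406 in regulatory and 0.135 in CD8 T cells, as means over sets. Zbtb7c was at 1.93 in gamma-delta T cells and 0 in the CD4 and NK sums. The sums of a set share its library and depth, so these correlations are a description.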

How the data were processed

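Live CD45-positive cells were measured with the 10x Genomics 3′ v3.1 chemistry. The authors deposited 8 matrices of raw UMI counts per gene and cell, 4 for each region, made with Cell Ranger 7.1.0 per the file headers (the methods name another version) on GRCm38. Whether intron reads were counted is not given in the sources used here. The 12 multiplexing oligos were left out. Cells with 200 to 7500 genes and at most 2% mitochondrial counts were kept, with median UMI counts of 4262 to 4657 in a set. Within a region 0 barcodes were shared between matrices, and 65 of 29125 were found in both regions. Doublets were not called. Tags remove those between sets, and T cells with a myeloid marker share of 1% or more were kept out.

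Gates were limits on marker UMIs. T cells had at least 2 UMIs of Cd3 genes, and gamma-delta T cells at least 2 of Trdc and 1 of a gamma constant gene. Other T classes had at most 1 of Trdc and at least 1 of Cd4, Foxp3 or Cd8 genes, and NK cells at least 3 of NK markers and at most 1 of Cd3. Counts were summed per set, or per set and class with at least 10 cells, and tested with edgeR 4.0.16 (R 4.3.3; TMM, filterByExpr, quasi-likelihood F-test, Benjamini-Hochberg over all genes tested, threshold 0.05), with the set as a block between classes. DESeq2 1.42.0 was an alternative. The code was tested on simulated data. The members are always named, and of the gene lists those called with the largest changes. Genes like a member were the 5 with the highest r among those with 20 CPM or more in their highest class. The members and lists were chosen with earlier results of these data known. The fit over microglia and the difference of the class contrast between regions were added after seeing the data. P-values measure the spread between sets. Gene positions are from GENCODE M21 (GRCm38), which held 32235 of the 32285 IDs.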

Additional observations from a re-analysis of the deposited data

Results flagged for a closer look

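Single sets that stood far from the others of their region (by the gap to the nearest set over the whole range) were found in 8 of 55 groups of 4 sets. The limit is set to flag about 1 in 20 groups, or 2.8, by chance when values are continuous. It does not hold for sparse counts, where a group with UMIs in only 1 set is always flagged. The 8 can therefore not be read against the 2.8. In the T and NK cells as a whole, Il17a was at 5.85 UMIs per 10000 in thalamus set 4 and 1.53 to 1.68 in the other thalamus sets. That set held 436 gamma-delta T cells, and its Il17a level within them was also the highest of the region, at 9.48. Il17f in gamma-delta T cells was at 0.1 in thalamus set 4 and 0 in the other thalamus sets, and in CD8 T cells at 0.0542, from 1 UMI, in the same set and 0 in the others. Il7r in CD4 T cells was at 5.53 in thalamus set 1 and 9.68 to 10.1 in the others. In the HPC, where set 1 (6.13) was the lowest, no set was singled out, since only 3 sets held enough cells. Il17re in T and NK cells was at 0.302 in HPC set 3, which held 34 such cells, and 1.02 to 1.16 in the other HPC sets. Blk in CD4 T cells was at 0.164 in thalamus set 3, from 1 positive cell of 16, and 0 to 0.0261 in the others. Il17a in regulatory T cells (0.0661 in thalamus set 2) and Cd163l1 in CD8 T cells (0.0556 in thalamus set 1) rest on 1 positive cell each, with 0 in the other thalamus sets.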

How the results depend on the processing

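The count of genes called between regions depended on the setting. For T and NK cells it was 3, and 36 with the DESeq2 Wald test, 39 with no filter, 9 with a mitochondrial limit of 5%, 5 with stricter gates and 2 to 14 with a set left out (14 without HPC set 3). For CD45-positive cells it was 538, and 1418, 296 and 813 under the first 3 of these and 0 to 4007 with a set left out (0 without HPC set 2, HPC set 4 or thalamus set 4, 4007 without HPC set 1). For gamma-delta T cells it was 39, and 74 with no filter and 12 to 58 with a set left out (12 without HPC set 2), and for microglia 1688 and 727 to 2809 (727 without HPC set 2, 2809 without HPC set 1). Whether set numbers mark shared mice is not stated, and they were not treated as pairs because not every same-numbered pair correlated above 0.1: deviations correlated at 0.156, 0.069, 0.00796 and 0.274 in T and NK cells and 0.544, -0.0157, 0.653 and 0.128 over all cells, where HPC sets 2 and 4 correlated best with thalamus set 3. In T and NK cells HPC sets 1, 2 and 4 correlated best with the thalamus set of the same number. There HPC set 3, with 34 such cells, correlated best with thalamus set 1 (0.078). Whether the sets are pairs is thus not settled. With the set number as a replicate block the counts were 67, 2563, 104 and 3846, and Il17f (-0.06), Il1r1 (-0.07) and Il7r (-0.01) in T and NK cells and Il23r (-0.02) in gamma-delta T cells changed sign. Maf over all cells passed with the block (-0.36, adjusted p = 0.0101), and no other call of a member between regions changed.

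Called genes between classes were 1301 (CD4), 1293 (regulatory), 1395 (CD8) and 1454 (NK). They were 522, 622, 573 and 771 in HPC sets alone and 814 (CD4), 761 (regulatory) and 800 (NK) in thalamus sets alone, where the sums are fewer, and Il17a (-0.16) and Maf (-0.08) against CD4 changed sign in the HPC sets. With a mitochondrial limit of 5% Il1r1 in T and NK cells was -0.0022. With a set left out, these differences between regions took both signs: in T and NK cells Il17a (-0.65 to 0.39), Il17f (-0.16 to 0.42), Il23r (-0.17 to 0.79), Il1r1 (-0.46 to 0.35), Cd163l1 (-0.28 to 0.78), Blk (-0.48 to 0.87) and Il7r (-0.07 to 0.14), over all cells Il17a (-0.28 to 1.86), and in gamma-delta T cells Il17a (-0.16 to 1.21), Il23r (-0.1 to 0.21) and Il1r1 (-0.44 to 0.0042). So did Maf in gamma-delta against CD4 T cells (-0.01 to 0.23). The causes were not tested. The difference in the share of gamma-delta T cells ran from -3.85 to 12.7 percentage points. Thinning moved the share of positive cells by more than 1 SD between sets for Il23r (47.1%), Il1r1 (54.2%), Il17re (20.7%), Blk (80.1%), Il7r (77.9%) and Maf (70.4%) in gamma-delta T cells and for Il1r1 (20%), Il17re (22.0%), Il7r (62.0%) and Maf (64.6%) in CD4 T cells, and lowered the other shares by less than that, and stricter gates put Il1r1 in CD4 T cells at 1.62 UMIs per 10000.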
